A study of Mus musculus with 72 samples.

Results

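The liver of adult *Bmal1*-knockout (KO) mice was compared with the liver of KO mice that had received a muscle-directed *Bmal1* vector. The comparison holds 8 libraries, 4 from KO+AAV and 4 from KO mice, out of 72 in the whole series. They were the liver libraries collected at 40 weeks, and every gene with a mean normalized count above 5 over these 8 libraries was tested, which gave 16656 genes. All 8 came from male mice that carried the global *Bmal1* deletion, and tissue was taken at ZT1, 1 hour after lights on. KO+AAV pups were injected on postnatal day 5 with AAV9, an adeno-associated virus, carrying an HA-tagged *Bmal1* cDNA behind the muscle-specific CK6 promoter. The sources used here do not say whether these KO mice had a sham injection, and injection, capsid, and *Bmal1* cargo cannot be told apart in liver. The series holds no wild-type liver and no liver with a GFP control vector, as both kinds of mice are represented by gastrocnemius only. AAV9 is known to enter liver and heart cells as well as muscle, and the muscle-specific promoter is what limits where its cargo is read. In younger KO+AAV mice the study measured more vector copies in liver and heart than in skeletal muscle. It detected no protein from the vector in either tissue.

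BMAL1, encoded by *Arntl*, pairs with CLOCK or NPAS2 and switches on genes that hold E-box sequences in their promoters. Among these genes are the Period and Cryptochrome genes, whose products close the loop by inhibiting the activators, and *Nr1d1* and *Nr1d2*, whose products repress *Arntl*. In liver the clock sets daily rhythms of glucose, lipid, and bile acid metabolism, and the liver also follows feeding, body temperature, and hormones. A global knockout lacks the clock in all tissues. The comparison therefore asked what differed in a tissue outside the skeletal muscle when *Bmal1* was supplied to muscle.

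Few genes passed the threshold in liver. At an unadjusted limma *P* under 0.01, 91 of 16656 genes were differentially expressed genes (DEGs), or 0.546% of those tested, and 53 were higher and 38 lower in KO+AAV. DESeq2, the tool of the study, gave 176 genes (1.06%) at the same unadjusted threshold, and edgeR gave 90 (0.54%). No gene passed an adjusted *P* of 0.05 in limma or in edgeR, whereas 553 genes (3.32%) had an unadjusted *P* under 0.05 in limma and DESeq2 called 8 genes (0.048%) after adjustment. The lowest adjusted *P* in limma over all genes tested was 0.994, so each DEG below is a call at the unadjusted threshold. With no difference between the groups, a share near 0.01 of genes would have a *P* under 0.01, and near 0.05 under 0.05. Both limma shares were below this, so the limma counts alone show no excess of called genes. The DESeq2 share at 0.01 was close to it. *Arntl* itself was higher in all 4 KO+AAV livers, 6 of 14 heat shock genes were higher, and *Cyp2c69*, *Cyp2c40*, *Cda*, *Cd9*, *Rgs3*, and *Ccl9* were lower. The heat shock list, like the other lists, was chosen with earlier results of these data known. No gene in the lists for glucose handling, fatty acid synthesis, cholesterol synthesis, fatty acid oxidation, bile acids, or the complement system was a DEG.

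The libraries held 37124342 to 50620493 reads on genes, and hepatocyte markers such as *Alb* summed to between 66900 and 79000 CPM, the count scaled to the library's total, which matched the tissue label. KO+AAV replicate 2 stood apart from the other 7 libraries on the first principal component, where its score was 74.9 and the others ranged from −26 to 7.1. Heart muscle markers were present in every liver library. Their 8 genes summed to between 32.5 and 139 CPM in KO and between 4.29 (replicate 2) and 231 CPM in KO+AAV, against 21700 to 64500 CPM in the heart libraries. Of the 8 adipocyte markers, *Lep* was at 0 in all 8 libraries and *Adipoq* had at most 4.47 normalized counts. Both were picked after their values were seen. The whole list summed to 2007 to 2613 CPM in KO and 1639 to 4138 CPM in KO+AAV. It includes *Pck1*, also a gene of gluconeogenesis, with means of 78138 counts in KO and 112120 in KO+AAV. Without KO+AAV replicate 2 the number of DEGs was 117 (0.701%), with 69 higher and 48 lower, and 53 of these were among the 91. Nothing in the labels says how many litters the mice came from, so the *P* values measure the spread between these libraries only.

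Promoters of heat shock genes are shown because these genes supplied the largest group of DEGs from 1 list. Of the 6 heat shock DEGs, 4 had an entry among the RefSeq promoters (GRCm38.p6), and *Hspa8* and *Hsp90aa1* had none. Each stretch runs from 150 bases before the transcription start to 30 bases after it, on the gene's own strand, 5′ to 3′, for the first entry of each gene. Capitals mark paired heat shock half-sites, GAANNTTC or TTCNNGAA, which are a part of the sequence to which heat shock factor trimers bind. Both patterns read the same on the opposite strand, and neighbouring matches can overlap.
Hsph1, chr5:149636307-149636486, minus strand: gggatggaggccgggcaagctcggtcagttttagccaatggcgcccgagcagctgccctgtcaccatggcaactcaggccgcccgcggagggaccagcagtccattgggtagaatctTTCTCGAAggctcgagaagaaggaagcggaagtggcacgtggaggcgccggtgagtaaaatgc
Hspa1b, chr17:34959209-34959388, minus strand: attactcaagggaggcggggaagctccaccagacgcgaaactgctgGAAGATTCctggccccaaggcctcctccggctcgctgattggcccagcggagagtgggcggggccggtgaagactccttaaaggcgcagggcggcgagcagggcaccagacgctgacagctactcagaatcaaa
Dnaja1, chr4:40722318-40722497, plus strand: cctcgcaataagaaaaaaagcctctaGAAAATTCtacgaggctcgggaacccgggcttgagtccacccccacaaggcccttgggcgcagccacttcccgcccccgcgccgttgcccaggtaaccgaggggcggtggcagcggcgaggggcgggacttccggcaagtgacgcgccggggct
Chordc1, chr9:18292117-18292296, plus strand: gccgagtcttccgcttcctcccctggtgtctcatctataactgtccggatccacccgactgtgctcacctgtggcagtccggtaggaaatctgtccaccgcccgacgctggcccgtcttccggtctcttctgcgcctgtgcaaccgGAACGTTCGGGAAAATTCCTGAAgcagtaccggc
The match began 33 bases before the start in *Hsph1*, 104 before it in *Hspa1b*, and 124 before it in *Dnaja1*, and *Chordc1* held 4 overlapping matches around the start. *Dnaja1* had 3 entries, of which 1 held a match. Over all 32851 RefSeq promoters, 9.2% held either pattern in a window of this length and 15.1% in the full 300 bases. In the full 300 bases, 9 of the 11 heat shock genes with an entry held it in at least 1 promoter. That count is by gene and the shares are by promoter, so they are not directly comparable. A gene with more entries has more chances to hold a match. A match of letters is a description of the promoter and was not tested for binding.

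*Arntl*, the gene that the mice lack and the vector carries, was the first gene examined. It lies on the plus strand of chr7:113207465-113314126. Its normalized counts in KO liver were 596, 584, 652, and 679, and in KO+AAV liver 950.0, 1231, 781, and 836. Every KO+AAV library lay above every KO library. The means were 628 ± 45.5 and 949.6 ± 201 (SD, n = 4 each), a fold of 1.51 between means. On the log2(count + 1) scale the difference was 0.58 ± 0.14 (SE; limma, adjusted *P* = 0.998), a DEG. A two-sided exact permutation test over the 70 arrangements of the libraries gave p = 0.0286, the smallest that 4 against 4 allows. The difference ranged from 0.44 to 0.66 when each library was left out in turn, and 0.44 was the value without KO+AAV replicate 2, the highest library.

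*Arntl* reads were present in every KO liver. The counts are sums over the gene, so reads from the knockout allele's own transcript and from the vector cDNA cannot be told apart. The same count was read in the other tissues at 40 weeks, each normalized on its own.

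**Figure D1:**
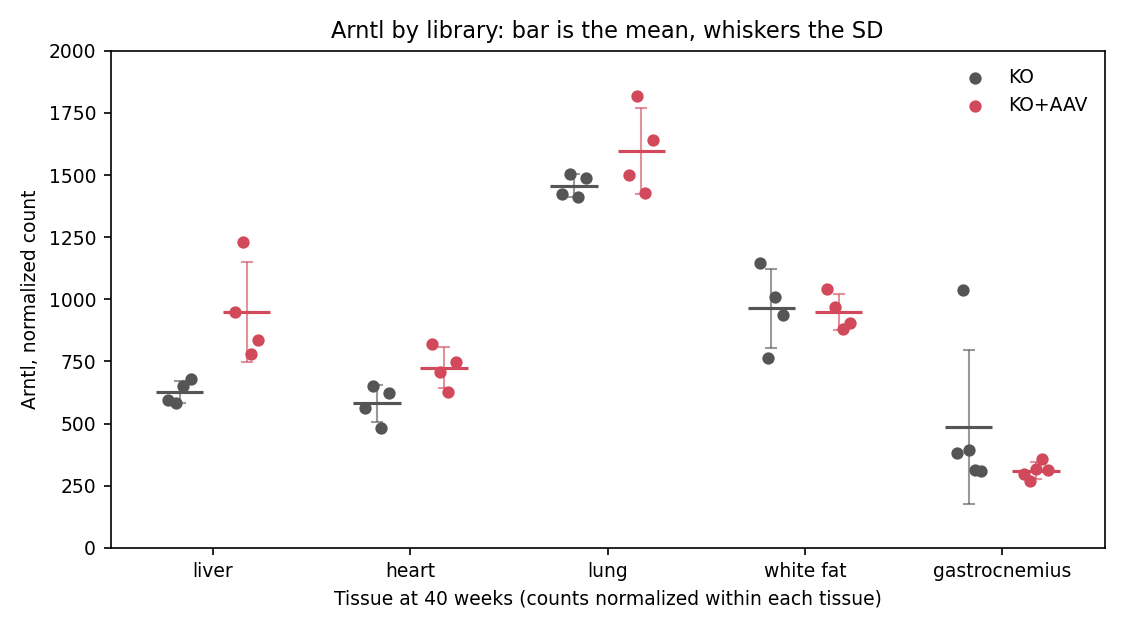
*Arntl* normalized counts (vertical axis) in each library of KO (gray) and KO+AAV (red) mice at 40 weeks, by tissue. Points are libraries, the bar is the mean, and the whiskers are the SD. In liver the lowest KO+AAV library (781) lay above the highest KO library (679), whereas the groups overlapped in lung, white fat, and gastrocnemius, and in heart by the library labelled KO replicate 2 (653) alone.

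In heart, where KO libraries ranged from 484 to 653 and KO+AAV libraries from 627 to 821, the difference was 0.32 ± 0.14 (limma, adjusted *P* = 0.862). The 653 belonged to the library labelled KO heart replicate 2, which carried hepatocyte markers at 43800 CPM. Without it KO heart ranged from 484 to 624, the groups lay apart as in liver, and the difference was 0.38 ± 0.13 (limma, adjusted *P* = 1.0). In lung it was 0.13 ± 0.08, and in white fat it was −0.01 ± 0.15. Gastrocnemius, the tissue with the promoter's target fibers, had 298, 268, 317, 359, and 313 in KO+AAV. Its KO libraries had 381, 395, 312, and 308, and the library labelled KO replicate 2 had 1039. The difference there was −0.48 ± 0.29, and −0.16 ± 0.13 without that library, so the count was not higher in KO+AAV muscle. The difference of changes, liver minus the other tissue, was 1.06 ± 0.37 for gastrocnemius, 0.45 ± 0.17 for lung, 0.59 ± 0.21 for white fat, and 0.25 ± 0.20 for heart. None passed adjustment over all genes (limma interaction, adjusted *P* = 0.999, 0.538, 0.956, and 0.926). Without KO gastrocnemius replicate 2 that difference was 0.74 ± 0.19 (limma, adjusted *P* = 0.697).

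No clock gene other than *Arntl* passed. Of 19 clock genes 18 were tested, and *Arntl* was the only DEG, against the background of 0.546%. The list had a median log2 difference of 0.13, where all tested genes had 0.002, and 14 of the 18 differences were positive. The range ran from −0.24 for *Bhlhe40*, a repressor, to 0.86 for *Per1*. *Clock*, the partner of BMAL1, had 2381, 2041, 2559.9, and 2857 in KO and 2334, 3086, 2828, and 2321 in KO+AAV, which overlapped throughout. *Npas2*, the alternative partner, had a difference of −0.08 ± 0.23.

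Among direct E-box targets, *Per1* had 533, 857, 651, and 640.2 in KO and 495, 1514, 951, and 2909.6 in KO+AAV. Its KO+AAV libraries spread over the KO range on both sides, and the difference of 0.86 ± 0.45 did not pass. *Per1* passed the DEG threshold when KO+AAV replicate 1, the lowest library, was left out, with a difference of 1.29. *Per2* differed by 0.28 ± 0.24 and *Per3* by 0.14 ± 0.23. *Cry1* differed by 0.14 ± 0.09 and *Cry2* by 0.07 ± 0.09. *Nr1d1*, which encodes REV-ERBα, had 136, 63.5, 48.9, and 69.6 in KO and 50.2, 79.7, 112, and 60.8 in KO+AAV, and its exons overlap those of *Thra* on the other strand over 8.55% of their length. *Nr1d2* differed by 0.23 ± 0.24.

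None of the output factors passed. *Dbp*, a PAR bZIP factor and a strong BMAL1 target, had 132, 267, 250.3, and 158 in KO and 303, 145, 209, and 272 in KO+AAV, with a difference of 0.21 ± 0.29. *Tef* and *Hlf*, of the same family, differed by 0.12 ± 0.08 and 0.21 ± 0.12. *Rora*, an activating receptor that competes with REV-ERB, differed by 0.07 ± 0.12. *Nfil3* differed by 0.10 ± 0.25 and *Ciart*, at 5.92 to 28.6 counts in all libraries, by 0.51 ± 0.48. None of these had a *P* under 0.05 in limma.

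**Figure D2:**
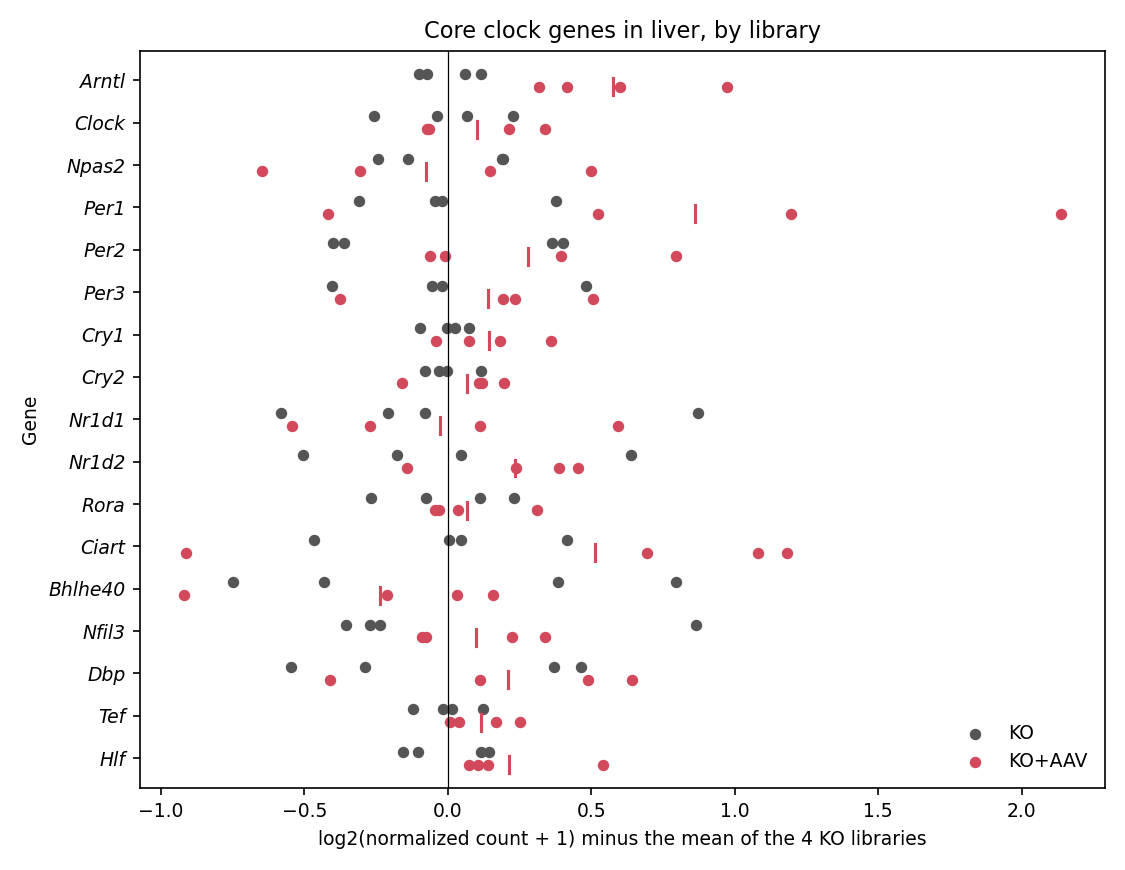
Clock genes in liver, 17 of the 18 tested, one row each. The horizontal axis is log2(normalized count + 1) minus the mean of the 4 KO libraries, points are libraries (KO gray, KO+AAV red), and the red bar is the KO+AAV mean. *Arntl* is the only row in which the 4 red points lie apart from the 4 gray points, with a mean difference of 0.58.

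Heat shock proteins are chaperones that hold and refold other proteins, and their genes are switched on by the factor HSF1 after heat, fasting, or other protein stress. In liver their mRNAs also follow body temperature over the day. All 14 genes of the heat shock list were tested. Of these, 6 were DEGs (*Hsph1*, *Hspa1b*, *Hspa8*, *Hsp90aa1*, *Dnaja1*, and *Chordc1*) and all 6 were higher in KO+AAV, where the background of higher DEGs was 0.318% of genes tested, and none was lower. The list was chosen with earlier results of these data known, and its genes share a regulator. The 6 therefore do not count as independent genes, and the background is given for scale only. All 14 differences were positive with a median of 0.36, against 0.002 over all genes. The median deviation of the list from the KO mean was −0.16 to 0.06 in the 4 KO libraries and 0.23, 0.44, 0.38, and 0.41 in the KO+AAV libraries.

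*Hsph1* encodes HSP110, which recharges HSP70 with nucleotide, and lies on the minus strand of chr5:149614287-149636376. It had 2380.5, 1884, 2202, and 2411 counts in KO and 2943, 5276, 4037, and 4148 in KO+AAV. The groups did not overlap, and KO+AAV replicate 2 was the highest. The means were 2219 ± 242 and 4101 ± 954 (SD, n = 4 each), and the difference was 0.86 ± 0.16 (limma, adjusted *P* = 0.998). It was the gene with the smallest *P* among those higher in KO+AAV, and the difference ranged from 0.73 to 1.01 when each library was left out.

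*Hspa1b* encodes the inducible HSP70 and had 669.8, 438, 1027, and 599 in KO and 943, 1142, 1349.7, and 2105 in KO+AAV. The groups overlapped, as KO replicate 3 lay above the lowest KO+AAV library, and the difference was 1.02 ± 0.29. Its neighbor and near-identical copy *Hspa1a* had 82.9, 71.7, 133, and 61.2 in KO and 126, 119.6, 113, and 406 in KO+AAV, with a difference of 0.95 ± 0.42. Reads shared between these copies may have been assigned to either or to none, so each value is uncertain. *Hspa8*, the constitutive member, had 54056, 40260, 49540, and 47045 in KO and 56774, 60859, 70417, and 67880 in KO+AAV. It was among the most abundant chaperone mRNAs, its groups did not overlap, and the difference was 0.43 ± 0.12.

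*Hsp90aa1*, the inducible cytosolic HSP90, had 7544, 6070.3, 7312, and 8750.2 in KO and 9127, 11658, 12549, and 9771 in KO+AAV. The groups lay apart, with a difference of 0.54 ± 0.13. *Dnaja1*, an HSP40 co-chaperone, had 11085, 9323, 10492, and 10564 in KO and 11895, 15747, 13051, and 12999 in KO+AAV, a difference of 0.37 ± 0.10. *Chordc1*, a co-chaperone of HSP90, had 1827, 1662, 1819, and 1936 in KO and 1978, 2181, 2496, and 2401 in KO+AAV, a difference of 0.32 ± 0.09. Neither gene's groups overlapped.

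The other members did not pass. *Hspd1*, the mitochondrial HSP60, differed by 0.20 ± 0.08 without overlap between groups, and its partner *Hspe1* by 0.09 ± 0.08. *Dnajb1* and *Bag3*, both HSP70 partners, differed by 0.41 ± 0.20 and 0.35 ± 0.19. *Hspb1*, a small heat shock protein, differed by 0.32 ± 0.16 and *Hspa4l* by 0.22 ± 0.13. *Hsf1* had 844, 674, 765, and 823 in KO and 723, 907, 796, and 835 in KO+AAV, and its difference of 0.07 ± 0.10 was well inside that spread. Outside the list, and picked after their values were seen, *Stip1*, which links HSP70 with HSP90, was higher by 0.31 ± 0.08 and *Hsp90ab1*, the constitutive HSP90, by 0.28 ± 0.08.

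**Figure D3:**
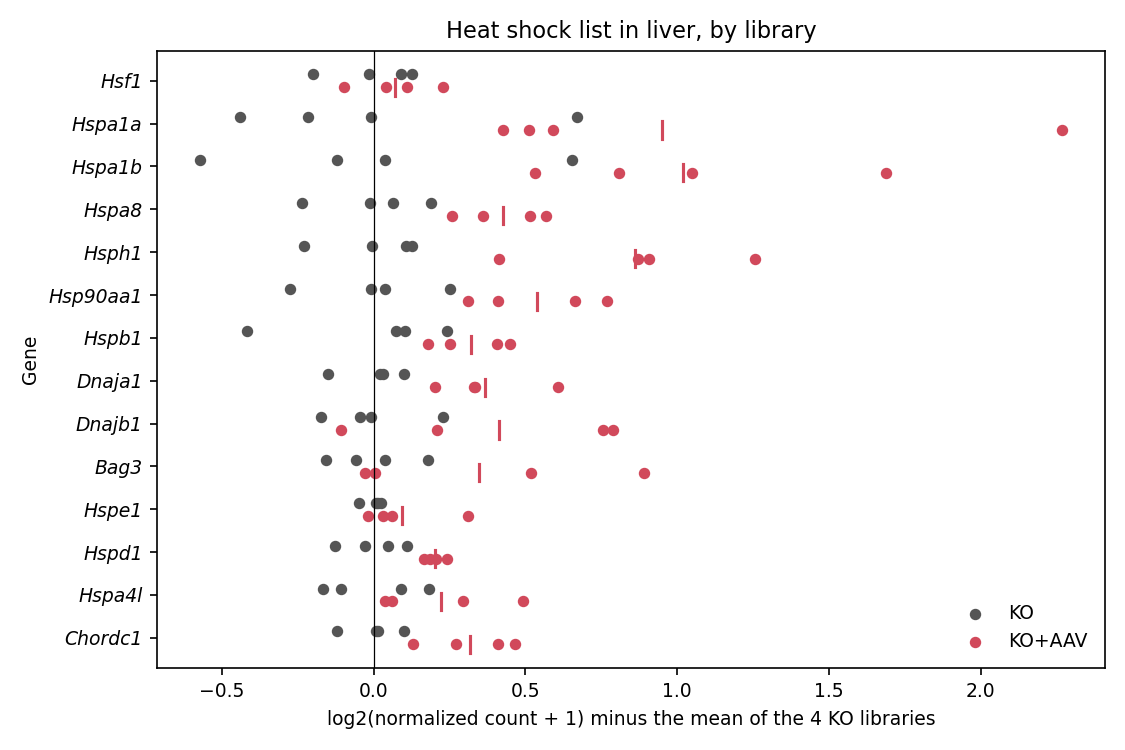
The 14 genes of the heat shock list in liver. The horizontal axis is log2(normalized count + 1) minus the mean of the 4 KO libraries, points are libraries (KO gray, KO+AAV red), and the red bar is the KO+AAV mean. All 14 red bars lie right of zero, from 0.07 (*Hsf1*) to 1.02 (*Hspa1b*).

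Without KO+AAV replicate 2 the list still had 6 DEGs, the same genes, and a median of 0.31. Of the 6, only *Hsph1* and *Hsp90aa1* passed under every alternative fit. With 1 library left out in turn the list's count ranged from 2 (without KO replicate 2) to 7. With each of KO replicates 3 and 4 and KO+AAV replicates 3 and 4 left out it was 3. In the other tissues at 40 weeks, the list had 4 of 14 DEGs in lung, all higher, with a median of 0.49 where 3.96% of all genes were DEGs. In heart, gastrocnemius, and white fat it had no DEG and medians of 0.33, 0.22, and 0.16, where 0.0829%, 1.08%, and 0.0711% of all genes were DEGs. Without the libraries that stood apart there, the heart median was 0.41 (0.155% DEGs) and the white fat median 0.05 (0.441%), still with no DEG in the list. *Hsph1* differed by 1.13 ± 0.31 in lung, 0.57 ± 0.21 in heart, 0.44 ± 0.42 in white fat, and 0.29 ± 0.16 in gastrocnemius. The liver change of *Hsph1* was not shown to differ from that in lung, heart, white fat, or gastrocnemius (limma interaction, adjusted *P* = 0.92, 0.926, 0.956, and 0.999).

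All genes in the following paragraphs with values in every library were DEGs unless said otherwise. Among the genes lower in KO+AAV were 3 cytochrome P450 genes. *Cyp2c69* and *Cyp2c40* belong to the Cyp2c family, whose enzymes hydroxylate drugs, steroids, and fatty acids, and they are neighbors on the minus strand of chr19, at 39842814 to 39886799 and 39767071 to 39812814. *Cyp2c69* had 2447, 2083, 1515, and 3335 in KO and 758, 1101, 709.9, and 696 in KO+AAV. The highest KO+AAV library lay below the lowest KO library, and the difference was −1.49 ± 0.23 (limma, adjusted *P* = 0.994), the smallest unadjusted *P* of all genes tested. *Cyp2c40* had 6653, 2478, 2885, and 6185 in KO and 1542, 1713, 1809.8, and 1624 in KO+AAV. Here the KO libraries fell into a low and a high pair while the KO+AAV libraries lay close together, and the difference was −1.31 ± 0.30.

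Both genes are near-identical to other members of their cluster, so reads can be split between copies. Of the 13 tested *Cyp2c* genes these were the only DEGs, and the family's differences ran from −1.49 to −0.01 with a median of −0.25. Over all 68 tested P450 genes 3 were DEGs, all lower, where 0.228% of all genes were lower DEGs. The third was *Cyp39a1*, which hydroxylates oxysterols on the way to bile acids, with 1991, 802, 1108, and 1372 in KO and 634, 805, 755, and 694 in KO+AAV. Its groups overlapped by KO replicate 2, and the difference was −0.79 ± 0.24. It was also the only DEG of the 8 tested female-biased liver genes. The female-biased list had a median of −0.14 with 5 of 8 differences negative, and −0.26 with 7 of 8 negative without KO+AAV replicate 2. None of the 14 male-biased liver genes was a DEG, and their median was 0.25 with 10 positive, or 0.36 with 13 positive without that library. *Hsd3b5*, a male-specific liver enzyme, had means of 15712 in KO and 15469 in KO+AAV, and *Cyp2a4*, a female-biased P450, stayed at or below 10.05 counts in every library.

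*Cda* encodes cytidine deaminase of pyrimidine salvage. It had 411, 488, 388, and 336 counts in KO and 225, 219, 225, and 249 in KO+AAV, and the tight KO+AAV group lay wholly below. The difference was −0.81 ± 0.13 (limma, adjusted *P* = 0.994). *Rgs3*, a brake on G protein signaling, had 408, 584, 475, and 390.3 in KO and 213, 316, 225, and 256 in KO+AAV, a difference of −0.87 ± 0.17. *Slc13a5*, the citrate carrier of the hepatocyte plasma membrane, had 116, 135, 109, and 116 in KO and 54.7, 59.3, 82.9, and 84.5 in KO+AAV, a difference of −0.77 ± 0.19.

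*Bmp6*, the ligand through which liver endothelium sets hepcidin, had 299.5, 254, 245, and 215 in KO and 209.9, 128, 109, and 149 in KO+AAV. The highest KO+AAV value came close to the lowest KO value, and the difference was −0.80 ± 0.21. Further genes with small *P* values and no overlap were *Tmem160* (−0.32 ± 0.08) and *C77080* (−0.36 ± 0.10), with folds between means of 1.25 and 1.28. *Aldh3b3* and *Col9a1* had −2.13 ± 0.55 and −2.21 ± 0.58 at low levels. *Aldh3b3*, an aldehyde dehydrogenase, had 15.5, 14.3, 9.59, and 9.49 in KO and 2.23, 0, 3.95, and 3.80 in KO+AAV.

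Other lower genes were *Cd9*, *Ccl9*, *Fgr*, and *Plscr1*. *Cd9*, a tetraspanin that also marks recruited macrophages, had 2747, 2492, 1902, and 1845 in KO and 1096, 1144, 1446, and 1395 in KO+AAV. The groups lay apart with a difference of −0.81 ± 0.15, and *Cd9* shares 10.7% of its exon bases with a gene on the other strand. *Ccl9*, a chemokine, had 1312, 1396, 1687, and 1709 in KO and 994, 1093, 1033, and 1139.9 in KO+AAV, a difference of −0.51 ± 0.10. *Fgr*, a Src-family kinase of myeloid cells, had 93.2, 66.6, 54.7, and 52.7 in KO and 36.8, 25.5, 33.6, and 41.8 in KO+AAV, a difference of −0.92 ± 0.25. *Plscr1*, an interferon-inducible scramblase, differed by −0.68 ± 0.15.

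The Kupffer cell markers were not DEGs. All 10 had negative differences, with a median of −0.58, and *Clec4f*, the defining marker, had 2693, 2556, 1022, and 1407 in KO and 2005, 832, 1290.4, and 1033 in KO+AAV, which overlapped (−0.54 ± 0.35). *Vsig4* differed by −0.80 ± 0.37 and *Timd4* by −0.62 ± 0.43. The summed level of the 10 markers was 81.5 to 276 CPM in KO and 68.3 to 159.5 CPM in KO+AAV. In whole liver, fewer cells of a type and less RNA per cell cannot be told apart, and the part of these markers in the lower *Cd9*, *Ccl9*, and *Fgr* was not tested. Of the 8 tested markers of recruited macrophages and monocytes *Cd9* was the only DEG, and of 23 tested NF-κB and chemokine genes *Ccl9* was the only DEG, where 0.228% of all genes were lower DEGs. The latter list had a median of −0.33, and of −0.16 without KO+AAV replicate 2.

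*Mpeg1*, the macrophage pore-forming protein perforin-2, was higher in KO+AAV. It had 6649, 7672, 6411, and 6278 in KO and 9752, 9120.1, 7875, and 9414 in KO+AAV, without overlap, and the difference was 0.42 ± 0.09. *Lag3*, an inhibitory receptor of T cells, had 56.1, 74.8, 61.4, and 60.1 in KO and 96.0, 104, 111, and 138 in KO+AAV, a difference of 0.81 ± 0.18. None of the 9 tested T and NK cell markers was a DEG, and their summed level was 2.29 to 5.51 CPM in KO and 3.03 to 5.52 CPM in KO+AAV. *Cgas*, the sensor of cytosolic DNA, had 13.8, 16.4, 12.5, and 16.9 in KO and 19.0, 33.7, 29.6, and 33.2 in KO+AAV, a difference of 0.89 ± 0.28.

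*Cgas* was the only DEG of 36 tested interferon response genes, where 0.318% of all genes were higher DEGs. The list median was 0.24, with 27 of 36 differences positive, and 0.36 without KO+AAV replicate 2. *Isg15* differed by 0.31 ± 0.17 and *Irf7* by 0.21 ± 0.11, and neither had an unadjusted *P* under 0.05. By library the list's median deviation from the KO mean was −0.27, 0.10, −0.07, and 0.19 in KO and 0.20, −0.24, 0.22, and 0.51 in KO+AAV, so KO+AAV replicate 2 lay with the lower KO libraries. Without it the list had 3 DEGs, all higher (*Ifi27*, *Irgm1*, and *Tap1*), and *Cgas* did not pass.

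The remaining leading genes had no list in common. *Tmcc1*, an endoplasmic reticulum membrane protein, had 1438, 1602, 1497, and 1679 in KO and 1902, 1929, 2206, and 2209.5 in KO+AAV, a difference of 0.41 ± 0.09. *Caln1*, a calcium-binding calneuron, had 20.7, 17.4, 22.1, and 15.8 in KO and 35.7, 61.3, 38.5, and 41.8 in KO+AAV, a difference of 1.16 ± 0.26. *Arl5b*, a small GTPase of the trans-Golgi, differed by 0.43 ± 0.10, *Akap13*, an anchoring protein of protein kinase A, by 0.36 ± 0.09, and *Tmem25* by 0.50 ± 0.13. Both groups lay apart in each.

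A pair of histone genes was among them. *Hist1h2bc*, an H2B gene, had 3120.3, 3099, 3289.9, and 3446 in KO and 3985, 3850.4, 3887, and 3869 in KO+AAV, a difference of 0.27 ± 0.06 with little spread within either group. *Hist2h4*, an H4 gene, had 9.49, 18.4, 14.4, and 5.27 in KO and 43.5, 26.6, 36.5, and 30.4 in KO+AAV, a difference of 1.55 ± 0.38. Most histone mRNAs end without a poly(A) tail, and the libraries were made from poly(A) RNA. *Shh*, the hedgehog ligand, was near the lower end of detection, with 1.73, 2.05, 1.92, and 0 in KO and 21.2, 5.11, 8.89, and 7.60 in KO+AAV. The noncoding *Gm48768* (0.69 ± 0.17) overlaps *Poc1b* on the other strand over 36.7% of its exon bases, and *Gm12346* (0.65 ± 0.14) is a transcribed processed pseudogene, so both values may include reads of other genes.

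**Figure D4:**
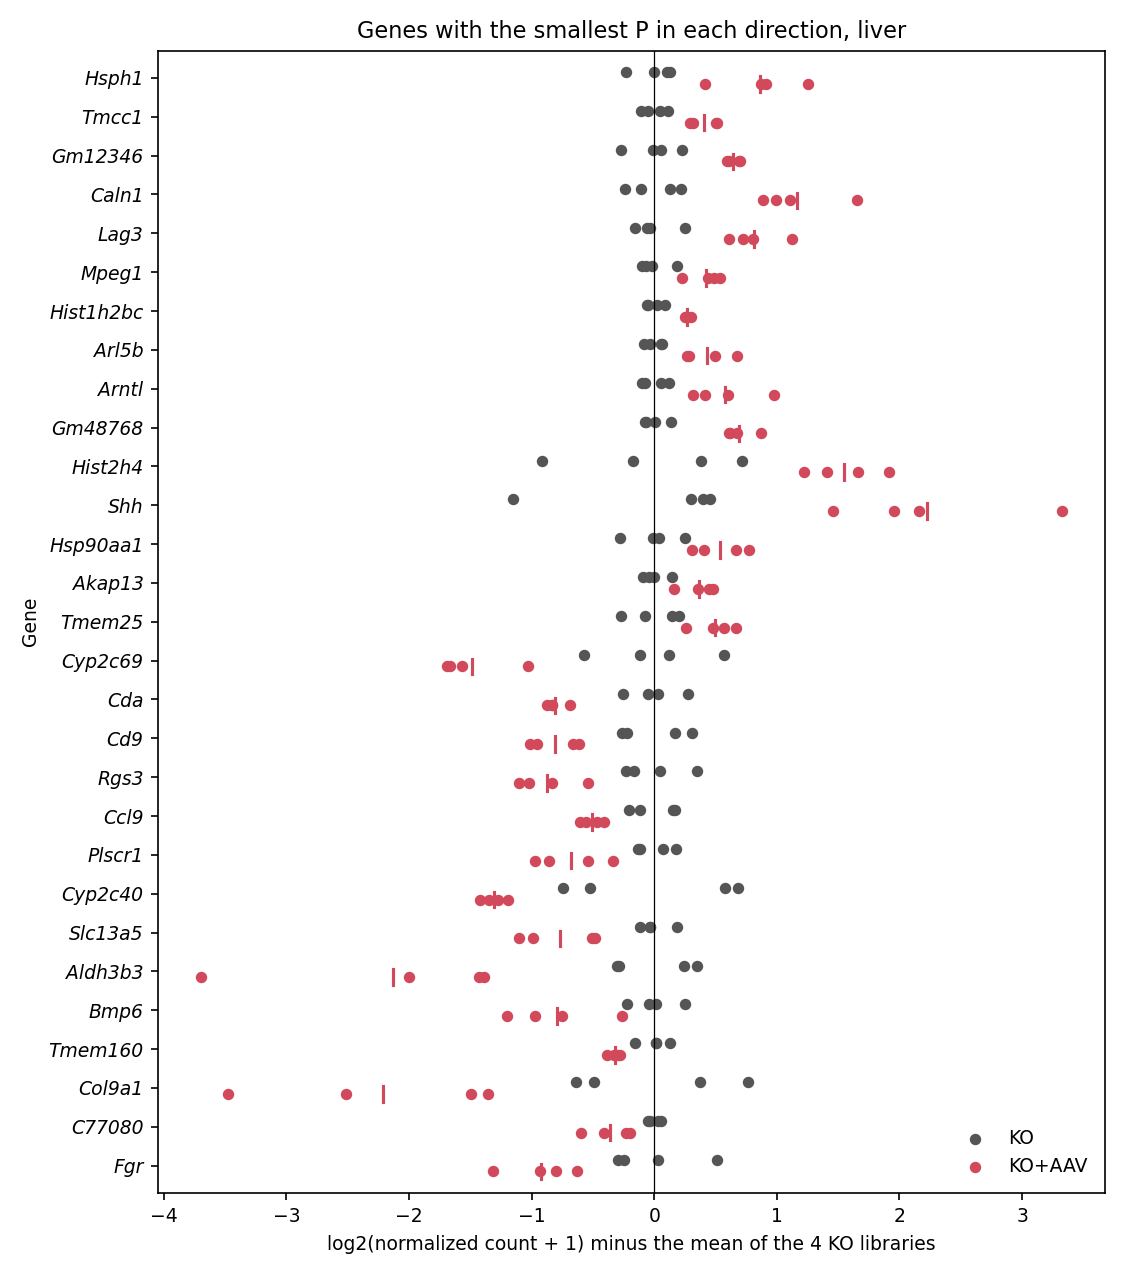
Genes with the smallest *P* and no overlap between groups, 15 higher (upper rows) and 14 lower (lower rows) in KO+AAV. The horizontal axis is log2(normalized count + 1) minus the mean of the 4 KO libraries, points are libraries (KO gray, KO+AAV red), and the red bar is the KO+AAV mean. The rows were chosen for this separation. Means run from −2.21 (*Col9a1*) to 2.22 (*Shh*), and both ends are genes with low counts.

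Groups that did not overlap were found for 354 of all tested genes (2.13%), of which 180 were higher (1.08%) and 174 lower (1.04%). With no difference between groups of 4 libraries a share of 0.0286 would be expected, the exact permutation p of such a separation. The share found was below it. Among the 91 DEGs, 74 had no overlap (43 higher and 31 lower), 74 were protein coding, 66 had a mean count of at least 50, and 31 differed by more than 2-fold. Of the 614 distinct genes tested from the lists for liver pathways and cell types, 11 were DEGs, where 0.546% of all genes tested were.

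The metabolic lists held no DEG, although some had a sizeable median. Fatty acid synthesis (18 genes) had a median of −0.38 and cholesterol synthesis and uptake (22 genes) also −0.38, with all 22 differences negative. Both medians depended on 1 library. By library the cholesterol list's median deviation from the KO mean was −0.17, 0.47, −0.38, and 0.04 in KO and 0.43, −1.70, −0.20, and −0.08 in KO+AAV, and the value of −1.70 belonged to replicate 2. Without it the list medians were 0.01 for fatty acid synthesis and 0.04 for cholesterol, with 16 of 22 cholesterol genes positive. *Fasn*, the fatty acid synthase, had 56002, 82966, 48517, and 54164 in KO and 67821, 9623, 50952, and 36995 in KO+AAV.

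Glucose handling (22 genes) had a median of −0.01, and of 0.05 without KO+AAV replicate 2. *Pck1*, of gluconeogenesis, differed by 0.39 ± 0.33 and *G6pc*, which releases free glucose, by −0.36 ± 0.64. Targets of PPARα and fatty acid oxidation (25 genes) had a median of 0.04 with 17 positive differences, which turned to −0.08 with 6 positive without KO+AAV replicate 2. *Cyp7a1*, the rate-limiting enzyme of bile acid synthesis, had 11176, 9669, 5645, and 9600.4 in KO and 27144, 9454, 10408, and 12393 in KO+AAV, so that 1 library carried the difference of 0.62 ± 0.33. The urea cycle and amino acid breakdown list (30 genes) had 28 positive differences and a median of 0.28. In it *Cps1*, the entry enzyme of the urea cycle, differed by 0.39 ± 0.17, *Ass1* by 0.32 ± 0.21, and *Asl* by 0.56 ± 0.29. That median was 0.16 without KO+AAV replicate 2.

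**Figure D5:**
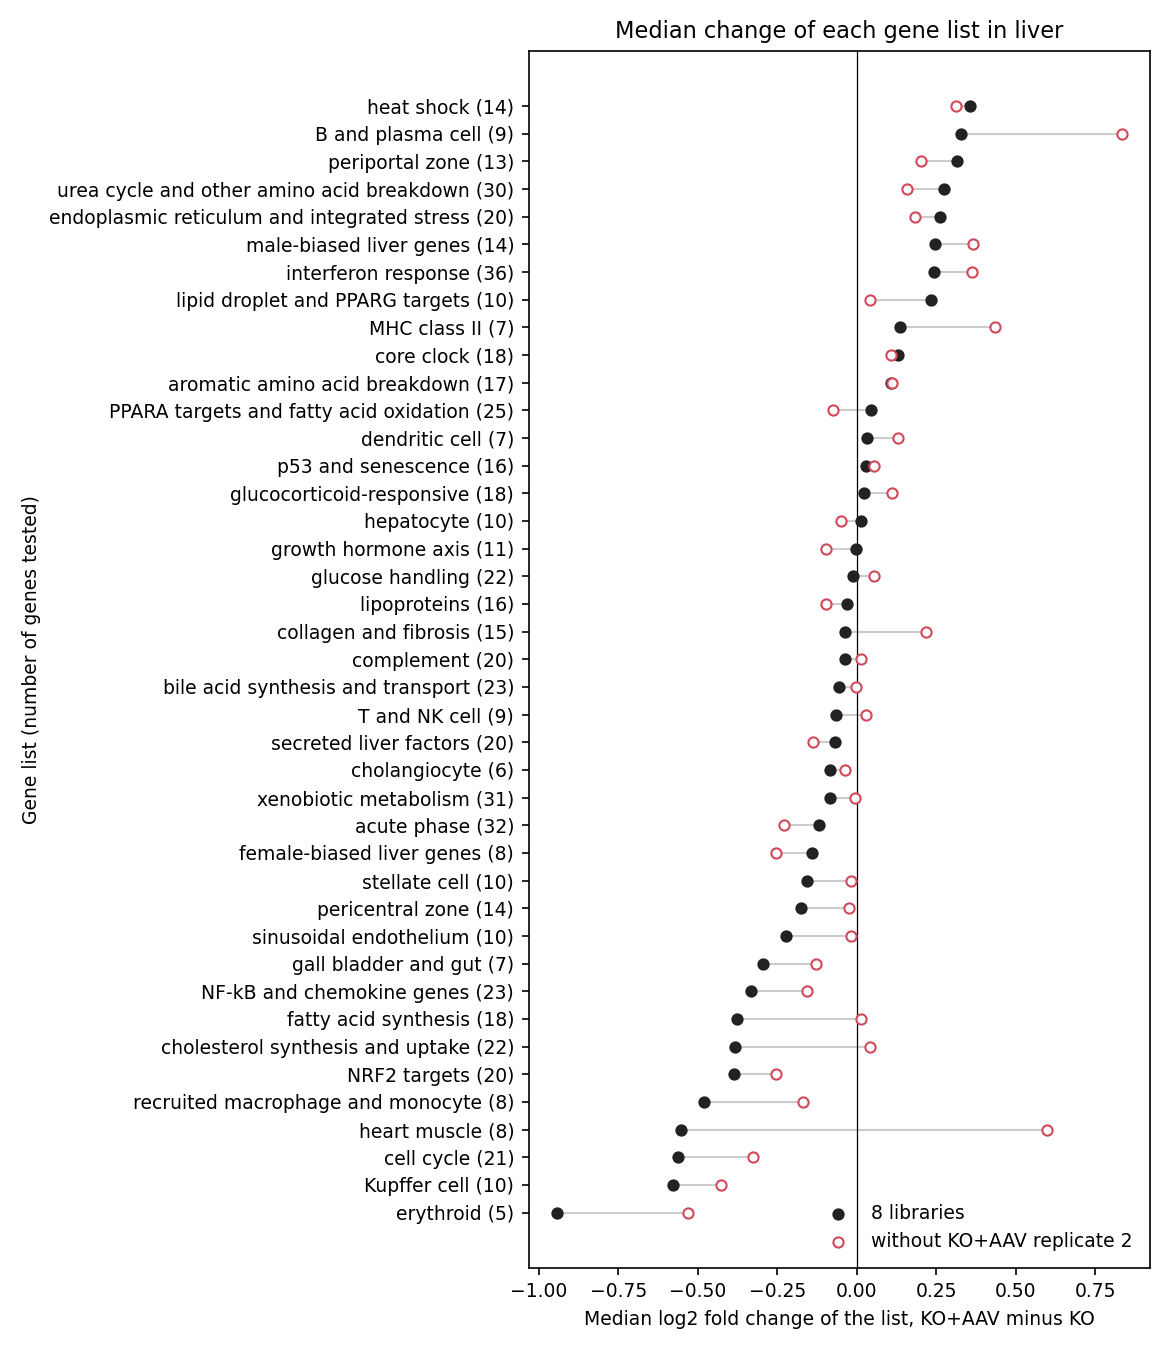
Median log2 difference, KO+AAV minus KO, of each gene list with at least 5 tested genes (rows, number of genes in brackets). Filled points use all 8 libraries and open points leave out KO+AAV replicate 2. Heat shock is the uppermost row (0.36 and 0.31), and fatty acid synthesis, cholesterol synthesis, and heart muscle moved from −0.38, −0.38, and −0.55 to 0.01, 0.04, and 0.60.

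Cell-type lists were also without DEGs outside *Cd9*. The cell cycle list had a median of −0.56 and *Mki67*, of dividing cells, had 86.3, 57.4, 32.6, and 27.4 in KO and 14.5, 2.04, 34.6, and 35.1 in KO+AAV. The median was −0.33 without KO+AAV replicate 2. Red cell genes had a median of −0.94 over the 5 tested, and of −0.53 over the 6 tested without KO+AAV replicate 2. Their summed level was 165 to 420.3 CPM in KO and 67.3 to 276 CPM in KO+AAV. The heart muscle list had a median of −0.55 with all libraries and 0.60 without KO+AAV replicate 2, and *Myh6*, the cardiac myosin, had 2804, 586, 1374, and 2345 in KO and 4656, 86.9, 788, and 2922 in KO+AAV. The part of these genes in the DEGs was not tested.

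The change in liver was set against the change in each other tissue by the interaction of vector and tissue. The fits treated all libraries as independent. Whether liver and the other tissues came from the same mice is not in the labels and was not checked. Against heart and white fat no gene passed an adjusted *P* of 0.05 (46 and 32 genes at an unadjusted *P* of 0.01 in limma, or 0.254% and 0.157%, and 422 and 63 by edgeR, with none after adjustment). Against gastrocnemius 1 gene passed, or 0.00558% (128 at the unadjusted threshold, 0.714%), namely *Mylk4*, but none did by edgeR or with a pseudocount of 0.5. Against lung 9 passed, or 0.044% (393 unadjusted, or 1.92%), among them *Krt5* and *Pax9*, but none did by edgeR or with a mean above 50. All of these differences, liver minus the other tissue, were negative: −6.13 ± 0.84 for *Mylk4*, −5.92 ± 0.49 for *Krt5*, and −4.97 ± 0.74 for *Pax9*. The KO+AAV change was thus lower in liver than in the other tissue. None of the genes described above as higher or lower in liver was among the genes that passed. In the heart the library labelled KO replicate 2 carried hepatocyte markers at 43800 CPM, where the other heart libraries had 11.2 to 45.7. Without it the unadjusted count against heart was 57, with none after adjustment.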

How the data were processed

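Total poly(A) RNA of liver was sequenced at 1 site for all 8 libraries. Per the labels and the study's methods, the authors aligned reads with HISAT2 to GRCm38 (mm10), counted genes with HTSeq, and deposited counts divided by a DESeq2 size factor for each library within each tissue. The deposited values are therefore a normalized signal, not raw counts. Whether counting used strand, and which annotation release, is not given in the sources used here. Each value divided by what 1 read was worth gave whole reads within 0.01 reads, so the read counts were recovered for the count models. Liver depth was 37124342 to 50620493 reads on genes, and counting error is smaller than the spread between libraries except at low counts. Gene names and coordinates came from GENCODE vM21 (GRCm38), which named 99.5% of the 55401 genes.

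Samples were grouped by the labels. Tests used limma 3.58.1 with an intensity trend on log2(value + 1), without covariates, for genes with a mean above 5. A gene with *P* under 0.01 was called a DEG, and the study used the same cutoff with DESeq2. The deposited values are normalized, so limma was used here with DESeq2 as an alternative, and Benjamini-Hochberg adjusted *P* values were taken over all genes tested. Log2 differences are on the log2(value + 1) scale, which understates changes of low genes. *Arntl* was tested by exact permutation. Alternatives were a pseudocount of 0.5, no filter, a mean above 50, edgeR 4.0.16 quasi-likelihood, DESeq2 1.42.0, recomputed size factors, library weights, a replicate block, and leaving out each library. Fits without libraries of other tissues that stood apart were added after the data were seen. The fits were tested on simulated data. The genes named are *Arntl*, the clock list, and the first 3 genes and the DEGs of each list. Also named are, on either side, the first 15 genes by *P* among those whose groups did not overlap. The other heat shock genes, *Stip1*, *Hsp90ab1*, *Cyp2a4* (first of its list), *Lep*, *Adipoq*, *Mylk4*, *Krt5*, *Pax9*, *Ifi27*, *Irgm1*, and *Tap1* were named after their values were seen where the rule did not name them. The genes compared and all lists were chosen with earlier results of these data known. The table of the GFP vector experiment was not used. Some genes that this rule names are not reported here or drawn in the figures, and they stay in the counts and medians of their lists.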

Additional observations from a re-analysis of the deposited data

Results flagged for a closer look

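Among the 80 genes described with liver values, 160 groups of 4 libraries were examined for a library far from the other 3. In 6 groups such a library was found. About 1 in 20 groups would be found by chance, and the share found was below this. In KO liver, *Nfil3* was 3036.5 in replicate 1 and 1302 to 1414 in the others, and *Shh* was 0 in replicate 4 and 1.73 to 2.05 in the others. In KO+AAV liver, replicate 2 was high for *Hlf* (2905, the others 2099 to 2199.8) and *Cyp2c69* (1100.5, the others 696 to 758). *Hspa1a* was 406 in KO+AAV replicate 4 and 113 to 126 in the others, and *Cyp7a1* was 27144 in replicate 1 and 9454 to 12393 in the others. No gene described with liver values changed differently in liver than in another tissue after adjustment.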

How the results depend on the processing

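The number of DEGs, 91, was 176 with no filter on the mean (26365 genes tested), 59 with a mean above 50 (12014 genes tested), 176 by DESeq2, and 67 to 117 when each library was left out. After adjustment no gene passed in any limma fit or in edgeR, and 8 passed in DESeq2 (*Cyp2c69*, *Cda*, *Hsph1*, *Cd9*, *Cyp2c40*, *Rgs3*, *Ccl9*, and *Gm12346*). *Arntl* kept its direction in all alternatives (0.44 to 0.66 with a library left out). Its exact permutation p was 0.0571 without KO replicate 1 (0.552), 2 (0.543), or 3 (0.596), with 35 arrangements. The clock list had 1 or 2 DEGs and a median of 0.106 to 0.155 with a library left out. Of distinct genes in all lists, 11 were DEGs (0.546% of all genes), 24 by DESeq2 (1.06%) and 7 (without KO+AAV replicate 4, 0.631%) to 18 (without KO+AAV replicate 2, 0.701%) with a library left out. Of the 6 heat shock DEGs, 3 passed with the replicate block, and 2 to 7 genes with a library left out. Same-numbered libraries did not deviate together (correlations −0.065 to 0.02, against −0.113 to 0.171 for other pairs). No pairing by number was seen, but these correlations cannot exclude one. The replicate block gave 65 DEGs, 37 of them among the 91. Of 37 named DEGs beside *Arntl*, 19 passed under every alternative that tested them and none reversed. Against the other tissues, genes at the unadjusted threshold were 249 for gastrocnemius, 106 for heart, 618 for lung, and 125 for white fat with library weights. They were 15 for heart and 16 for white fat with a mean above 50, and 422 and 63 by edgeR. With a liver library left out they were 104 to 153 for gastrocnemius, 37 to 59 for heart, 341 to 543 for lung, and 25 to 103 for white fat, these ranges including fits without libraries of the other tissue. White fat gave 55 without KO+AAV white fat replicate 2 and 103 without 3 white fat libraries that stood apart. After adjustment, *Mylk4* against gastrocnemius and the 9 genes against lung were lost by edgeR. No gene passed against gastrocnemius without KO liver replicate 2, 3, or 4 or without KO+AAV liver replicate 3. With a liver library left out, 2 to 12 passed against lung. Library weights gave 5 genes for gastrocnemius, 12 for lung, and 1 for white fat. White fat gave 3 without the 3 libraries that stood apart, and gastrocnemius gave 3 without KO gastrocnemius replicate 2. The cause of these shifts was not tested. Depth limits genes such as *Shh*, *Aldh3b3*, and *Col9a1*, whose libraries held a few reads.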
